A study of Mus musculus with 4 samples.

Results

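Endoplasmic reticulum (ER) stress and amino acid response genes were followed in mouse embryonic fibroblasts (MEFs) that lack inositol hexakisphosphate kinase 1 (IP6K1), the enzyme that makes the inositol pyrophosphate 5-IP7 from inositol hexakisphosphate. The 10 genes were Hspa5, Hsp90b1, Ddit3, Atf3, Atf4, Trib3, Asns, Herpud1, Xbp1 and Dnajb9. All probes that the array files name for these genes, leaving out control spots, were taken, which gave 14 of the 41174 probes and 10 of the 27827 gene names on the array. RNA of 2 Ip6k1+/+ and 2 Ip6k1-/- MEF lines was hybridised in Cy3, each line to 1 single-colour Agilent whole mouse genome array. Both genotypes came from E14 embryos of a single litter of heterozygous parents, and all 4 lines carry SV40 large T antigen, were thawed, passaged 2 times and harvested in exponential growth. No agent that provokes ER stress and no amino acid starvation was applied, so that all values are those of growing cells. Each line is 1 embryo, so that p-values measure the spread between lines of 1 litter.

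The unfolded protein response is started when unfolded proteins gather in the ER, by the membrane sensors IRE1, PERK and ATF6. IRE1 splices the Xbp1 message, ATF6 is cut to release a transcription factor, and PERK phosphorylates the translation factor eIF2α. GCN2, which senses uncharged tRNA when amino acids run short, phosphorylates eIF2α as well, and either route raises translation of ATF4, the factor that turns on the amino acid response. The ATF6 and XBP1 arms are known for chaperone genes such as Hspa5 and Hsp90b1, and the ATF4 arm for Asns, Trib3, Atf3 and Ddit3.

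The promoters of the members, as given by RefSeq on GRCm38.p6, were searched for motifs known from these arms. The windows ran from 250 bases before to 50 after the gene start, and both strands were read, for the ER stress response element, CCAAT and CCACG with 9 bases between them, and for the C/EBP-ATF response element core TGATGNAAN. The ER stress response element was found in 39 of 32851 promoter windows of the mouse table (0.119%) and in 2 of the 10 members, Hspa5 and Hsp90b1. Its 2 parts, CCAAT and CCACG, overlap it by construction and were common by themselves, in 37.4% and 32.8% of the windows, against 7 and 6 of the 10 members. These are the stretches of both chaperone genes, 5′ to 3′ along the gene, with both parts of the element in capitals.

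Hspa5 promoter, GRCm38.p6 chr2:34771985-34772083, plus strand: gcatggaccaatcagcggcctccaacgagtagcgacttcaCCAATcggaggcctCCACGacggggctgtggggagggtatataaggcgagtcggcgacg
Hsp90b1 promoter, GRCm38.p6 chr10:86705493-86705694, minus strand: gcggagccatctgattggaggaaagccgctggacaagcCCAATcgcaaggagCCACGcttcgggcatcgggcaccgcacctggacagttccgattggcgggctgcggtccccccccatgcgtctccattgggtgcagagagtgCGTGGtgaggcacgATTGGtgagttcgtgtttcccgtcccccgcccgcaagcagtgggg

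Hsp90b1 holds the element on each strand, and the second copy is therefore read here as its reverse complement. The C/EBP-ATF core was found in 3.95% of the windows and in 4 of the 10 members, Herpud1, Atf3, Trib3 and Asns. The match in Trib3 lies after the gene start and is not shown. The other stretches are shown with the core, or its reverse complement, in capitals.

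Herpud1 promoter, GRCm38.p6 chr8:94386276-94386364, plus strand: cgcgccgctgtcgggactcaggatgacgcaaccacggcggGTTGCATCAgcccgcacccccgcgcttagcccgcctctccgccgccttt
Atf3 promoter, GRCm38.p6 chr1:191183396-191183484, minus strand: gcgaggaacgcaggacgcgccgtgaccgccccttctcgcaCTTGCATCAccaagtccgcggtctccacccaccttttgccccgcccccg
Asns promoter, GRCm38.p6 chr6:7693210-7693272, minus strand: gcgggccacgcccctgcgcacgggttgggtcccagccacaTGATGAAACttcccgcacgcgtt

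A match is only a run of letters. Genes known from these arms were searched for motifs known from the same arms, so that the shares beside them are no test of enrichment. Ddit3, Atf4, Xbp1 and Dnajb9 held neither full motif in these windows.

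The labels were checked first on Ip6k1. Levels throughout are log2 signals relative to the 75th percentile of the array, so that 0 is the 75th percentile and 1 unit is a 2-fold difference, and they are compared between lines for 1 probe and not between probes. A probe in Ip6k1 (mm9 chr9:107948209-107948268) was at 0.35 and 0.39 in the Ip6k1+/+ lines but was not well above background in the knockout lines, where it was at least 34.0-fold lower (limma adjusted p = 0.0355). A probe that overlaps it gave at least 32.7-fold (limma adjusted p = 0.0355). The last Ip6k1 probe (mm9 chr9:107950832-107950891) was well above background in every line, at 2.46 and 2.61 in Ip6k1+/+ against -1.98 and -1.23 in Ip6k1-/-, with a limma adjusted p of 0.367.

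The 4 arrays were of like quality, with 52.0% to 55.5% of probes well above background. Of the 7 fibroblast markers checked, Col1a1, Col1a2, Col3a1, Fn1, Pdgfrb and Thy1 were well above background in every line, and the level of the 7 summed, in multiples of the 75th percentile, was 361 and 375 in Ip6k1+/+ and 326 and 304 in Ip6k1-/-. Fap was well above background in 1 Ip6k1+/+ line and in no other. Pdgfrb was at 4.67 and 4.45 in Ip6k1+/+ and at 3.34 and 3.39 in Ip6k1-/-, and the brightest Col3a1 probe at 6.24 and 5.90 against 5.46 and 4.17. The brighter Thy1 probe was at 1.41 and 6.02 against 3.98 and 5.52, with Ip6k1+/+ replicate 1 far below the other lines. The epithelial markers Cdh1 and Krt14, the leukocyte marker Ptprc and all 4 skeletal muscle markers were on no array well above background. Other markers of these lists were present. The epithelial Krt18, endothelial Kdr, leukocyte Cd68 and neural Tubb3 and Nes each had 1 probe well above background on all 4 arrays. Nes was at 2.59 and 2.92 in Ip6k1+/+ and at 2.45 and 3.15 in Ip6k1-/-. Krt8, Epcam, Csf1r and Sox10 were well above background on 1 Ip6k1+/+ array and on no other. The summed levels in the same order of lines were 0.707, 3.11, 0.490 and 1.55 for 5 epithelial, 0.126, 0.0931, 0.166 and 0.395 for 4 endothelial, 0.183, 0.206, 0.335 and 0.213 for 5 leukocyte, 0.0388, 0.0303, 0.0327 and 0.0362 for 4 skeletal muscle, and 7.01, 10.3, 6.48 and 12.1 for 4 neural markers. The part of these levels in the values below was not tested.

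None of the 14 member probes passed the test for a difference between the genotypes. All 14 were well above background in all 4 lines and none was flagged as saturated. Single pixels were saturated in the brightest spots, at most 22 and 6 on the Hsp90b1 probes and 3 on Asns. By limma with Benjamini-Hochberg adjustment over 21572 probes tested, 0 of 14 passed an adjusted p of 0.05, against 0.0139% of all probes tested, and the adjusted p-values were 0.993 to 0.997. At an unadjusted p under 0.05 the count was also 0 of 14, against 3.34% of all probes tested, and the smallest p was 0.163, for Asns. By the 2-fold rule it was 0 of 14 as well, against 5.95%. Few probes passed the adjusted threshold at all. Over the array 3 did, among them both overlapping Ip6k1 probes. The last Ip6k1 probe did not, though it was at 0.0570 of its Ip6k1+/+ level, so that a member failing this threshold says little by itself. The differences, Ip6k1-/- minus Ip6k1+/+, ran from -0.40 for Atf3 to 0.20 for Hspa5, with standard errors between 0.180 and 0.418. In 9 of 14 probes the 95% interval of the difference lay wholly within 2-fold in either direction. A 2-fold difference therefore lies outside the interval for Hspa5, Hsp90b1, Herpud1, Asns, Ddit3, Xbp1 and Atf4, and for 1 of the 3 Dnajb9 probes, but not for Atf3 and Trib3. The scanner limits this for the brightest genes. Raw signals of Hsp90b1, Asns and Hspa5 reached 93.5%, 81.8% and 57.9% of that of the brightest spot. A 2-fold rise above those signals could not have been read. In these bulk samples, less RNA per cell and fewer cells with that RNA cannot be told apart.

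**Figure D1:**
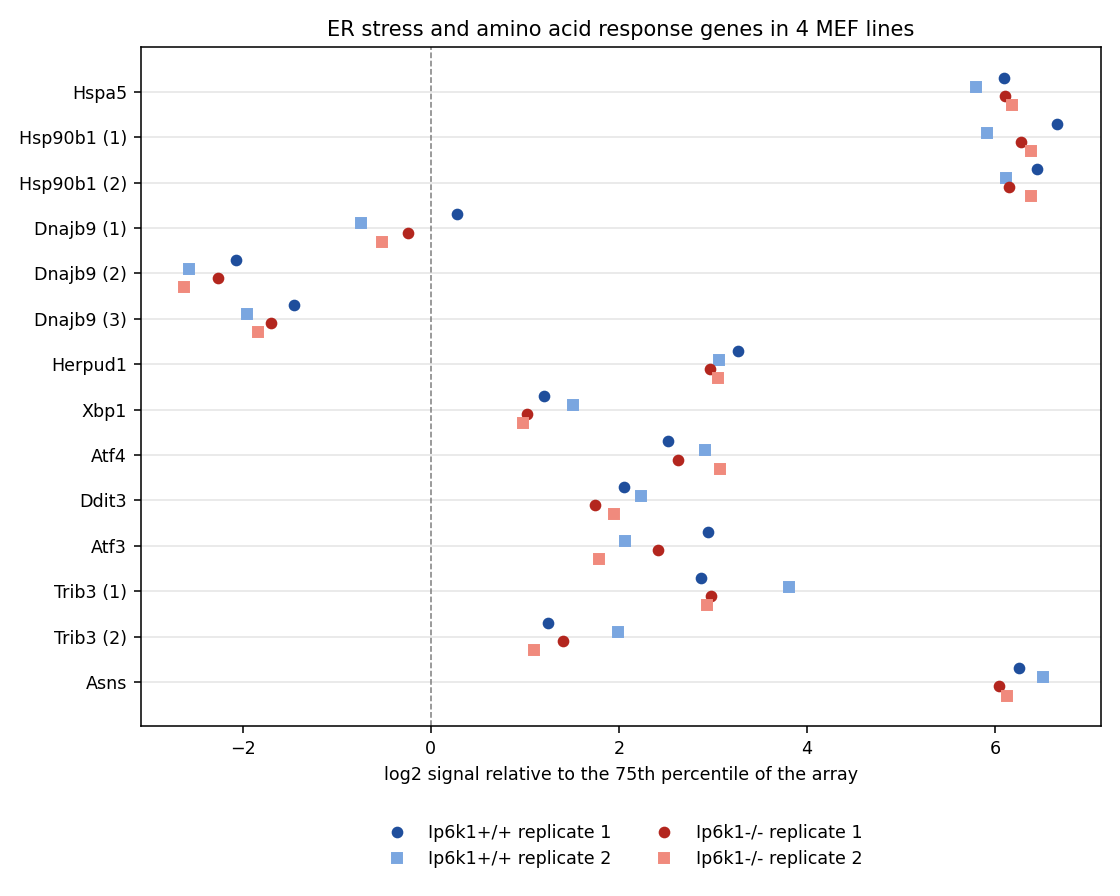
Level of each member probe in each line, as log2 signal relative to the 75th percentile of the array (horizontal axis), with genes in rows and numbers in brackets for several probes of 1 gene. Blue points are the 2 Ip6k1+/+ lines and red points the 2 Ip6k1-/- lines, and in 9 of the 14 rows the colours overlap.

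The direction was mostly negative. Of the 14 probes 11 had a lower mean in Ip6k1-/- (78.6%, against 43.5% of all probes tested), and the median difference was -0.15 against 0.055 over all probes tested. In 4 of 14 probes (28.6%) the 2 Ip6k1-/- values were lower than either Ip6k1+/+ value, against 12.6% of all probes tested, and in 1 of 14 (7.14%) they were higher, against 18.8%. The 4 were Asns, Ddit3, Xbp1 and Herpud1, and the 1 was Hspa5. The 14 probes are not independent, since 3 genes have several probes each. Without Ip6k1+/+ replicate 1 the median difference of the 14 probes was -0.012.

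Hspa5 encodes BiP, the main Hsp70 chaperone of the ER lumen, which also holds the stress sensors inactive. Its probe (mm9 chr2:34631630-34631689) was at 6.10 and 5.80 in the Ip6k1+/+ lines and at 6.11 and 6.18 in the Ip6k1-/- lines. Ip6k1+/+ replicate 2 was the low line, and the Ip6k1-/- lines lay above Ip6k1+/+ replicate 1 by less than the Ip6k1+/+ lines lay apart. The difference was 0.20 (standard error 0.19, 95% interval -0.29 to 0.69).

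Hsp90b1 encodes GRP94, the Hsp90 chaperone of the ER. Its probes lie at mm9 chr10:86161329-86161388 and chr10:86153770-86153829. The first was at 6.66 and 5.91 in Ip6k1+/+ and at 6.27 and 6.38 in Ip6k1-/-, and the second at 6.44 and 6.12 against 6.15 and 6.38. Both Ip6k1-/- lines lay between the Ip6k1+/+ lines on both probes, and the differences were 0.040 and -0.016 (95% intervals -0.72 to 0.80 and -0.55 to 0.52). These are also among the brightest spots of the arrays. Their raw signal reached 93.5% and 93.1% of that of the brightest spot, near the ceiling of the scanner.

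Dnajb9 encodes ERdj4, a co-chaperone of BiP that binds IRE1. Its 3 probes lie within 1 stretch of chromosome 12 (mm9 chr12:45307313-45307968). The probe at chr12:45307313-45307372 was at 0.27 and -0.75 in Ip6k1+/+ and at -0.24 and -0.52 in Ip6k1-/-. The other two were at -2.07 and -2.57 against -2.26 and -2.62, and at -1.46 and -1.95 against -1.70 and -1.84. On all 3 probes the Ip6k1+/+ lines were farther apart than the Ip6k1-/- lines, with Ip6k1+/+ replicate 1 the highest of the 4 lines. The differences were -0.14, -0.11 and -0.064, and all 3 were above 0 without that line, at 0.37, 0.14 and 0.18.

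Herpud1 encodes Herp, an ER membrane protein that works in ER-associated degradation. Its probe (mm9 chr8:96919117-96919176) was at 3.27 and 3.07 in Ip6k1+/+ and at 2.97 and 3.05 in Ip6k1-/-. The groups did not overlap, but Ip6k1+/+ replicate 2 and Ip6k1-/- replicate 2 all but met. The difference was -0.16 (95% interval -0.66 to 0.34).

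Xbp1 encodes the transcription factor whose message IRE1 splices. The 1 Xbp1 probe (mm9 chr11:5424970-5425029) was at 1.21 and 1.52 in Ip6k1+/+ and at 1.02 and 0.98 in Ip6k1-/-. All Ip6k1-/- values were below all Ip6k1+/+ values, and the Ip6k1-/- lines were close together. The difference was -0.36 (95% interval -0.96 to 0.23). Spliced and unspliced Xbp1 were not told apart by 1 probe.

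Atf4 and Ddit3, which encode the central factor of the amino acid response and CHOP, a factor downstream of it that is known for cell death under lasting ER stress, had 1 probe each. The sequences of these 60-base probes are shown since each decides the only value for its gene.

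Atf4 probe, mm9 chr15:80087079-80087138: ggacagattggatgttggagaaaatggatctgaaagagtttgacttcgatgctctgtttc
Ddit3 probe, mm9 chr10:126732518-126732821: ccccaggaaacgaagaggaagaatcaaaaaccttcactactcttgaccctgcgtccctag

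The Ddit3 probe spans 304 bases of genome for 60 bases of sequence, so that it crosses a splice junction and reads the spliced message. Atf4 was at 2.52 and 2.91 in Ip6k1+/+ and at 2.63 and 3.07 in Ip6k1-/-. The groups overlapped, with replicate 2 the higher line of each genotype, and the difference was 0.14 (95% interval -0.55 to 0.82). Ddit3 was at 2.06 and 2.23 in Ip6k1+/+ and at 1.75 and 1.94 in Ip6k1-/-. The groups did not overlap, and the difference was -0.30 (95% interval -0.85 to 0.25). ATF4 is governed mainly by translation, which RNA levels do not show.

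Atf3, a stress-induced factor of the same family, had the largest mean difference among the 14 probes. Its probe (mm9 chr1:192994547-192994606) was at 2.95 and 2.07 in Ip6k1+/+ and at 2.42 and 1.79 in Ip6k1-/-. The genotypes overlapped, and replicate 1 was the higher line of each. The difference was -0.40 (95% interval -1.44 to 0.63), and 0.035 without Ip6k1+/+ replicate 1. Its range over the 4 lines was the widest among the members, and the 5 other gene names with the most similar centred profile, out of 19956 probes well above background in every line, were Efemp2, Sec62, 3830406C13Rik, Ctdspl and Nucb2. Their root mean square distance from the Atf3 profile was 0.00633 to 0.0375 log2 units over 4 lines, and with 4 lines many profiles lie close to any given one.

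Trib3, a pseudokinase that binds ATF4 and AKT, was read by 2 probes that went the same way. The probe at mm9 chr2:152163355-152163414 was at 2.88 and 3.81 in Ip6k1+/+ and at 2.97 and 2.93 in Ip6k1-/-. The probe at chr2:152164025-152164084 was at 1.24 and 1.99 against 1.40 and 1.10. On both probes Ip6k1+/+ replicate 2 was the high line and the other lines were near each other. The differences were -0.39 and -0.36 (95% intervals -1.30 to 0.53 and -1.22 to 0.49), and they were 0.076 and 0.0090 without that line.

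Asns encodes asparagine synthetase, the enzyme whose gene defined the amino acid response element. Its probe (mm9 chr6:7625194-7625253) was at 6.25 and 6.51 in Ip6k1+/+ and at 6.04 and 6.12 in Ip6k1-/-. Both Ip6k1-/- lines were below both Ip6k1+/+ lines. The difference was -0.30 (95% interval -0.77 to 0.17), that is 0.814 of the Ip6k1+/+ level with an interval of 0.587 to 1.13, and it had the smallest standard error of the 14 probes. Asns also reached 81.8% of the raw signal of the brightest spot.

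**Figure D2:**
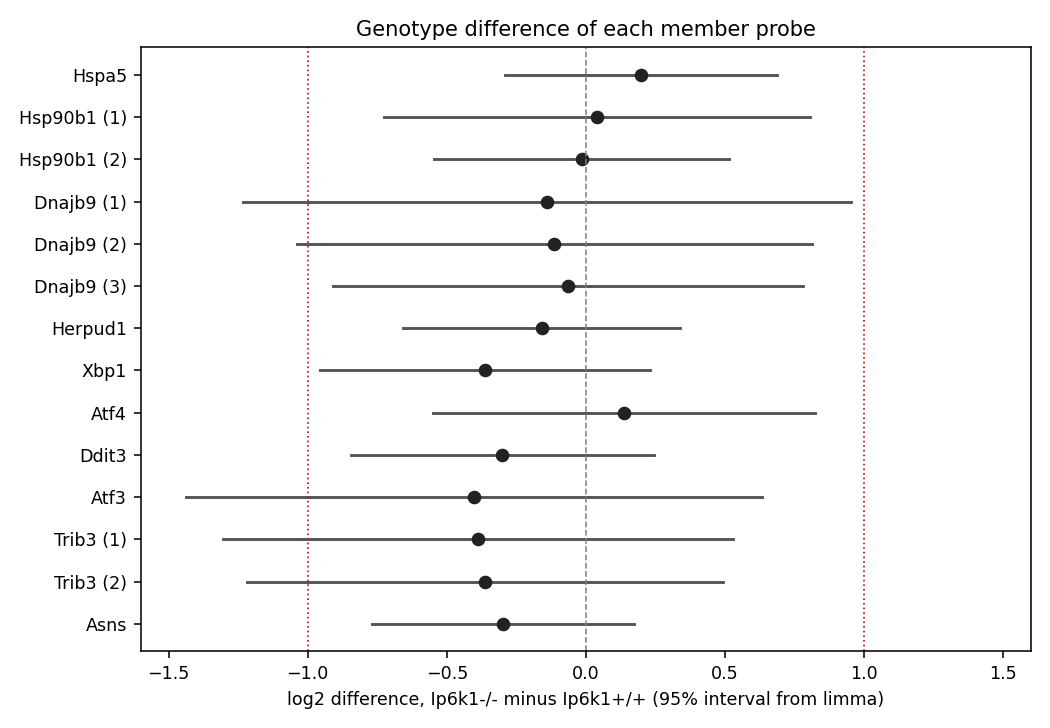
Difference of the mean log2 signal, Ip6k1-/- minus Ip6k1+/+, for each member probe (points) with its 95% interval from limma (lines), genes in rows. The dotted lines mark a 2-fold difference in either direction, and every interval includes 0.

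Set beside the promoter letters, the members with the full ER stress response element had differences of 0.20 (Hspa5) and of 0.040 and -0.016 (Hsp90b1). The members with the C/EBP-ATF core had -0.16 (Herpud1), -0.40 (Atf3), -0.39 and -0.36 (Trib3) and -0.30 (Asns). Herpud1 also holds a reversed CCAAT 52 to 48 bases before its start and CCACG 46 to 42 bases before it. That spacing and orientation was not searched as an element. The members with neither full motif had -0.36 (Xbp1), -0.30 (Ddit3), -0.14, -0.11 and -0.064 (Dnajb9) and 0.14 (Atf4). Negative values were thus found in each of these groups, though with the element the only one was -0.016, and this is a description with no test.

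The spread between lines was unequal. The 2 Ip6k1+/+ lines lay a median of 0.44 apart over the 14 probes and the 2 Ip6k1-/- lines 0.17, against 0.36 and 0.31 over all probes tested. The Ip6k1+/+ lines lay farther apart in 12 of 14 probes. In 11 of 14 the difference between the genotypes was smaller than the distance between the Ip6k1+/+ lines. Neither count was taken over all probes tested, so that neither is read as particular to the members. No one line was high or low throughout. Ip6k1+/+ replicate 1 was the higher of its genotype for 8 probes, mainly the chaperones, and Ip6k1+/+ replicate 2 for the other 6, which were Trib3, Asns, Atf4, Ddit3 and Xbp1.

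The other genes of these pathways were counted from lists, with 1 probe per gene, the brightest that was tested. The lists were chosen with earlier results of these data known, so that a rank among them is no test. By limma 0 genes passed in any of the 8 lists, in either direction, and the adjusted p-values of all list genes named here were 0.993 or above. The median over all 14334 gene names tested was 0.042.

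The 11 integrated stress response targets tested, genes that ATF4 and its partners are known to induce, had the lowest median of the 8 lists. It was -0.75, and 9 of the 11 had a lower mean in Ip6k1-/-, as had 45% of all gene names tested. For Fgf21, a stress hormone, the brighter probe was at -1.36 and -0.10 in Ip6k1+/+ and at -4.23 and -2.70 in Ip6k1-/-, which differ by -2.73 (standard error 0.70, limma unadjusted p = 0.0128 and adjusted p = 0.993). For Gdf15, a stress cytokine, the values were 1.91 and -0.050 against -0.76 and -1.61, which differ by -2.12 (standard error 0.73). For both genes the 2 Ip6k1+/+ lines also lay more than 2-fold apart. Chac1, which breaks down glutathione, was at 3.30 and 3.78 against 3.70 and 3.61, a difference of 0.11, and 1 of 3 Cebpg probes differed by 0.19. Cebpb, Ddit4 and Atf5 also had both Ip6k1-/- lines below both Ip6k1+/+ lines, with differences of -0.84, -0.80 and -0.75, and were named after their values were seen. With Fgf21 and Gdf15 these were the 5 of 11 genes with an unadjusted p under 0.05, against 2.33% of all gene names tested that had such a p and were lower. That count was smaller when a line was left out and was 7 with the replicate number as a block. The share of all gene names was not counted under these settings. By a plain t-test none of the 11 had an unadjusted p under 0.05. The median of the list was -0.31 without Ip6k1-/- replicate 2.

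**Figure D3:**
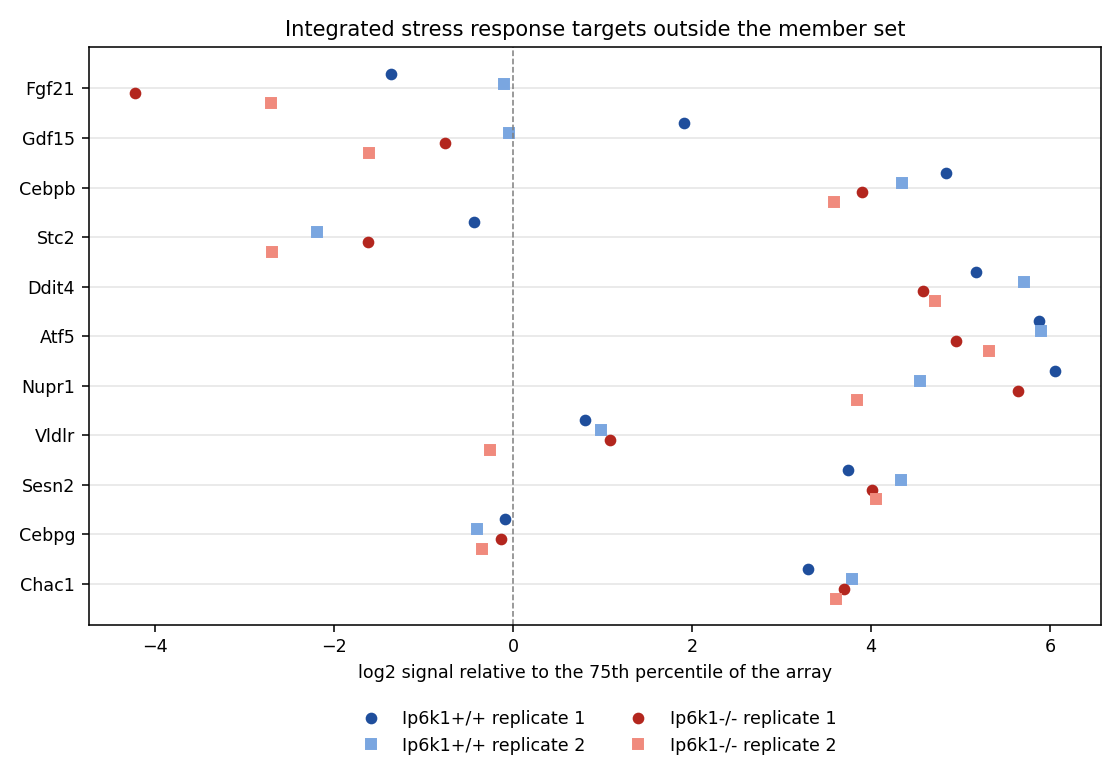
Level of 11 integrated stress response targets outside the member set in each line, as log2 signal relative to the 75th percentile of the array (horizontal axis), ordered by the difference between the genotypes. Blue points are Ip6k1+/+ lines and red points Ip6k1-/- lines, and in the top rows, for Fgf21 and Gdf15, the genotypes differ by -2.73 and -2.12 while the 2 Ip6k1+/+ lines are also far apart.

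The 15 ER chaperones and folding enzymes tested had a median of 0.079, with 9 higher and 6 lower. Hyou1, a large ER chaperone, differed by 0.42 and the brighter probe of Calr, the lectin chaperone calreticulin, by 0.41. The thiol oxidoreductase Pdia4 differed by -0.40, and Ero1lb, an oxidase that feeds such enzymes, by -0.56 on 1 probe and 0.26 on another. The 7 sensors and eIF2α kinases had a median of 0.085. In this list 1 of 2 Atf6 probes differed by 0.55, but the brighter one, which stood for the gene, by 0.11. Eif2ak2, the kinase PKR, differed by 0.49, against -0.28 for Eif2ak3 (PERK) and -0.49 for Creb3l1. For all 10 genes of ER-associated degradation the mean was lower in Ip6k1-/-, with a median of -0.21, against 45% of all gene names tested that were lower. The values ran from -0.39 for H47 and -0.34 for Os9 to -0.049, while dimmer probes of Os9 and Derl2 differed by 0.041 and 0.064. Without Ip6k1+/+ replicate 1 only 4 of these 10 were lower and the median was 0.018.

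Of the 20 aminoacyl-tRNA synthetases, which load tRNAs with amino acids, 17 had a higher mean in Ip6k1-/-, against 55% of all gene names tested, and the median was 0.18. The brightest probe of Hars, the histidine enzyme, was at 3.69 and 3.56 in Ip6k1+/+ and at 4.50 and 4.51 in Ip6k1-/-. These differ by 0.88 (standard error 0.17, limma unadjusted p = 0.00453 and adjusted p = 0.993). Another Hars probe differed by 0.38. A dim Farsa probe differed by 0.81 with its Ip6k1+/+ lines at -3.45 and -1.94, and its brightest probe by 0.22. The lowest values were -0.14 on 1 Cars probe and -0.11 on 1 Eprs probe. Without Ip6k1+/+ replicate 1 the count was 11 higher and 9 lower.

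The 11 enzymes of amino acid synthesis had a median of 0.059 and were spread widely. Both Psph probes, for the last enzyme of serine synthesis, differed by 0.43 and 0.37. Pycr1, the last enzyme of proline synthesis, was at 0.89 and 0.60 against -0.10 and -0.18, a difference of -0.89 (standard error 0.24), and Gpt2 differed by -0.28. Of the 9 amino acid transporters 7 were lower, against 45% of all gene names tested, and the median was -0.24. Slc1a5, the glutamine carrier, was at 3.25 and 3.55 against 2.72 and 2.59, a difference of -0.74, and Slc7a3 differed by -0.79. Among all transporter probes well above background in every line, the highest were a probe of the cystine carrier Slc7a11 at 0.38 and 1 of Slc38a2 at 0.28. The brightest Slc7a11 probe, which stood for the gene in the list, was well above background on 3 arrays and differed by -0.82, and that of Slc38a2 by 0.16. The 9 cytosolic heat shock genes, which answer to unfolded protein outside the ER, had a median of 0.087. Hspb1 differed by 0.51 and Hspe1 by 0.44, against -0.47 and -0.43 on the 2 Hspa1a probes. Over the 13 alternatives tried the medians of the chaperone, synthesis and heat shock lists took either sign, from -0.21 to 0.16, -0.15 to 0.18 and -0.22 to 0.25.

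**Figure D4:**
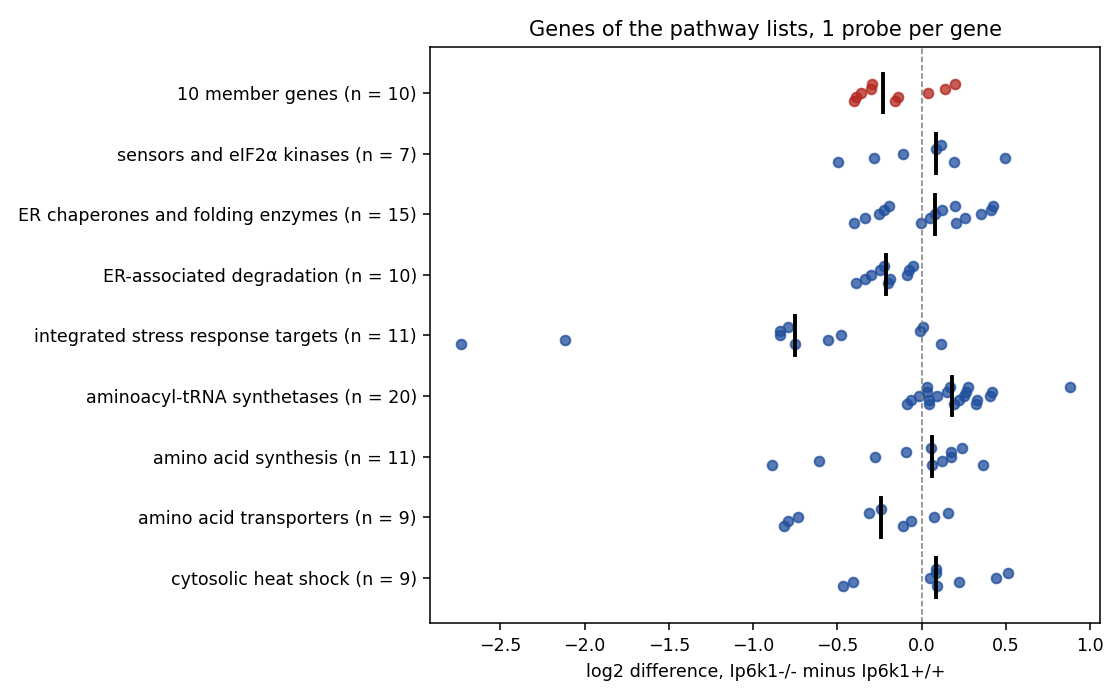
Difference of the mean log2 signal, Ip6k1-/- minus Ip6k1+/+, for each gene of the 8 pathway lists and of the 10 members, with 1 probe per gene, and the list median as a black bar. The members lie between -0.40 and 0.20, and the widest spread is in the integrated stress response targets, with a median of -0.75.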

How the data were processed

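RNA of 2 Ip6k1+/+ and 2 Ip6k1-/- MEF lines was amplified with an oligo-dT primer, labelled with Cy3 and hybridised to 4 single-colour Agilent 4x44K arrays of 1 slide. The authors deposited spot intensities, background-corrected by Feature Extraction 10.5.1.1, and a table of log2 values shifted by the 75th percentile in GeneSpring GX. Apart from 1 constant for each array, the median gap between these deposited log2 values and the ones used here was 0.0025. Coordinates are those of the file headers, on mm9 (NCBI37). An annotation of that build was not used here.

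The processed signal was log2-transformed and shifted by the 75th percentile (610 to 747) over the 43379 spots that are not controls, leaving out spots flagged as outliers (96 to 133 an array). Spots of 1 probe were averaged. A probe was tested if both arrays of a genotype had it well above background, which held for 21572 of 41174. The fit was limma 3.58.1 (lmFit, eBayes with a trend) in R 4.3.3, with genotype as the 1 term and p-values adjusted after Benjamini-Hochberg across all of these probes, and was tested on simulated data. The number of arrays limits the precision. Groups of 2 allow no check for a single deviating array. A probe below background in a genotype is given as a bound, set by the dimmest signal called well above background on each array.

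Named are all member probes, Ip6k1, from each list any called gene and, among probes well above background in all lines, the 2 highest and 2 lowest differences, and the 5 nearest profiles. Members and lists were chosen with earlier results of these data known. Lists held sensors and eIF2α kinases, ER chaperones, ER-associated degradation, integrated stress response targets, aminoacyl-tRNA synthetases, amino acid synthesis, transporters, heat shock genes and markers of 6 cell types. All 10 members matched the RefSeq promoter table, whose GRCm38.p6 coordinates are not comparable with mm9. Alternatives tried were background correction, scaling, the filter, the deposited table, the variance model, the test, a replicate block and leaving out each line.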

Additional observations from a re-analysis of the deposited data

How the results depend on the processing

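No member probe passed limma's threshold under any of the alternatives. They were normexp background correction, quantile and median scaling, a filter on dim probes left out or made stricter, and flagged spots kept. The others were the deposited log2 values, no variance trend, the replicate block and leaving out each line. Nor did a member probe pass by a t-test or the 2-fold rule. The study names the t-test in its general data analysis, and its array genes were picked by a 2-fold cutoff. Of 182 member differences under alternatives, 167 kept their direction and 15 were reversed, 14 of these on leaving out 1 line. Changing the filter, the variance trend, the block or the flagged spots left every member difference as it was. Those settings could therefore reverse none. The second Hsp90b1 probe was at 0.031 with the median of each array subtracted, a setting that moved the median of all probes tested from 0.055 to 0.10. Leaving out 1 line gave from -0.65 to 0.37, -0.37 to 0.14 and -0.31 to 0.18 for Dnajb9, -0.33 to 0.41 and -0.18 to 0.15 for Hsp90b1, -0.85 to 0.076 and -0.73 to 0.0090 for Trib3, -0.84 to 0.035 for Atf3 and -0.083 to 0.36 for Atf4, and it left the sign of Asns, Hspa5, Herpud1, Xbp1 and Ddit3 as it was. Without Ip6k1+/+ replicate 1, 1 Trib3 probe had an unadjusted p of 0.0234. Pathway genes called by limma were 0, but 7 by the t-test at its threshold, of which 0 after Benjamini-Hochberg. The 7 were Ero1l, Hars, Mars, Pycr1, Slc1a5, Slc3a2 and Wars, and none is an integrated stress response target. By the 2-fold rule 4 were called (Fgf21 and Gdf15, 1 dimmer Cebpb probe and 1 Qars probe). Over the array 849 of 21572 probes tested passed the t-test threshold, and 5.95% passed the 2-fold rule. Those are shares of probes, while a pathway gene was counted if any of its probes passed.

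The numbers of the lines are not stated to pair them, and the line differences correlated by 0.479 between the genotypes across probes. With the replicate number as a block, 0 members were called and 0 had an unadjusted p under 0.05. Of the integrated stress response targets 7 in place of 5 had such a p with the block. The share of all gene names with such a p was not counted for the block. Over the array 3 probes were called, as without the block, and both overlapping Ip6k1 probes were among them each time.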
